A study of Mus musculus with 3 samples.

Results

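CA3 pyramidal nuclei of the mouse hippocampus were taken from 3 single-nucleus RNA libraries by an expression gate. A nucleus was kept when it had at least 500 genes, at least 3 of the 6 genes Tspan18, Vit, Cpne4, Trhde, Arhgef26 and Ccbe1 detected, and a sum of these 6 of at least 10 per 10000 UMIs (unique molecular identifiers, 1 per captured RNA molecule). The inhibitory markers Gad1 and Gad2 had to sum to at most 1 per 10000, and Calcrl, a receptor gene of hilar mossy cells, to at most 1 UMI. The gate held 1350 of the 26480 nuclei with at least 500 genes, with 438 in mouse 1, 650 in mouse 2 and 262 in mouse 3. Because these genes chose the nuclei, their levels are a description and carry no test.

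CA3 pyramidal neurons are the excitatory cells that receive the mossy fibres of dentate granule cells on large spines close to the soma and that excite one another through recurrent collaterals. Their Schaffer collaterals drive CA1 pyramidal neurons. Kainate-type glutamate receptors are a known feature of the mossy fibre synapse, and the recurrent network has long made CA3 a tissue of interest in seizure research.

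The study profiled hippocampal nuclei of 3 adult female mice with the genotype Scn8aD/+, each after the onset of seizures, with 1 library and 1 batch per mouse. Scn8a encodes a voltage-gated sodium channel alpha subunit, and the line carries its D allele in every mouse used here. The collection protocol gives postnatal day 50 in a passage that names only pre-onset and control batches. All 3 mice form 1 group, so comparisons lie between classes of nuclei of the same animals, and differences between mice and between batches cannot be told apart. Nuclei were stained with propidium iodide and sorted before capture on the 10x 3′ platform, which reads no point mutation and therefore does not check the genotype. The libraries held 4659 to 13904 barcodes and 50931257 to 140527761 UMIs. CA3 nuclei had a median of 20099, 5182.5 and 51858.5 UMIs in mice 1, 2 and 3, against 8625, 1732 and 24784.5 in the other nuclei of the same library. Pairs of libraries shared 13 to 36 barcodes, and no shared barcode was a CA3 nucleus in both.

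The share of nuclei that met the gate was 5.21% ± 0.368 (SD, n = 3 mice), between 4.92% and 5.62%. How alike the mice were depended on the number of gate genes required. With at least 2 of the 6 the share was 5.80%, 9.51% and 7.02% in mice 1, 2 and 3. With at least 4 it was 4.48%, 2.30% and 4.47%, so mouse 2 went from highest to lowest. Near the threshold, 23, 55 and 14 nuclei of mice 1, 2 and 3 had a marker sum between 10 and 11 per 10000, and 27, 49 and 16 nuclei that met every other condition lay between 9 and 10. The median sum over CA3 nuclei was 20.2, 17.5 and 19.0 per 10000. A further 175 nuclei met every condition except that on Calcrl.

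The label was checked against marker lists, as summed CPM (the UMIs of a gene per 1000000 UMIs in the pooled nuclei of 1 class and mouse). Glutamatergic markers summed to 1996 to 2079 CPM in CA3 nuclei over the 3 mice, against 1128 to 1517 in the other nuclei. Among lists of neighbouring neuron types, those of granule and CA1 cells were low in CA3 nuclei. Granule markers were at 175 to 484 CPM against 1159 to 1267 in the others, and CA1 markers at 49.9 to 83.4 against 189 to 254. The CA3 nuclei included 11, 92 and 3 nuclei of mice 1, 2 and 3 that also met the granule gate described below. Inhibitory markers were at 48.6 to 193 CPM against 1151 to 1236, a list that holds Gad1 and Gad2, which the gate itself limited. CA2 markers were higher in CA3 nuclei than in the others in each mouse, at 57.4 to 83.6 against 32.2 to 63.9 CPM. So were mossy cell markers, at 163 to 201 against 84.3 to 129, although the gate limited Calcrl. Oligodendrocyte markers were at 99.3 to 450 CPM against 583 to 1188, microglial markers at 38.7 to 97.9 against 104 to 283, and endothelial markers at 8.7 to 10.7 against 8.6 to 13.1. Precursor markers of oligodendrocytes were at 461 to 685 against 741 to 836. The astrocyte list stood higher, at 292 to 851 CPM against 214 to 402. Nearly all of it was Slc1a2, the glutamate transporter GLT-1, at 282, 339 and 827 CPM, while the defining astrocyte genes Aqp4, Gja1 and Aldh1l1 did not exceed 2.4 CPM in any mouse.

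A minority of the gated nuclei carried RNA of cortical and subicular transcription factor genes. Tshz2, Foxp2 and Rorb summed to more than 5 per 10000 UMIs in 18, 47 and 27 CA3 nuclei, or 4.11%, 7.23% and 10.3% of those of mice 1, 2 and 3. In these nuclei Zbtb20, a transcription factor of hippocampal neurons, was at 2184, 2899 and 357 CPM, against 4130, 3824 and 3162 in the remaining CA3 nuclei. Grik4, a kainate receptor subunit, was at 626, 885 and 157 CPM against 984, 970 and 775. The sarcoglycan gene Sgcz was at 1274, 998 and 2119 CPM against 71.0, 162 and 116. Sgcz and Zbtb20 also stood among the closest correlates of Tshz2 across CA3 nuclei, so they are no independent check. The gate gene Cpne4 was alike in both, at 742, 854 and 851 against 823, 742 and 817. Other gate genes were lower in each mouse. Ccbe1 was at 200, 250 and 55.4 CPM against 353, 297 and 119, and Tspan18 at 30.4, 91.4 and 6.76 against 102, 106 and 55.8. Trhde was at 701, 459 and 732 CPM against 730, 618 and 1036. The departure was greatest in mouse 3. CA3 was therefore also compared with CA1 without all nuclei above 1 per 10000 for these 3 genes (35, 163 and 51 nuclei).

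Set against all other nuclei of the same library, CA3 nuclei were led by 3 kinds of gene besides the gate's own: a long non-coding RNA, a transcriptional repressor and a potassium channel. Gm32647, a long intergenic non-coding RNA at 94042691 to 94709171 on chromosome 7 (GRCm38, plus strand), reached 1193, 881 and 1342 CPM in CA3 nuclei of mice 1, 2 and 3 against 118, 175 and 93.2 in the others. Trps1, a zinc-finger repressor, was at 1258, 912 and 1603 CPM against 177, 249 and 221. Kcnq5, a subunit of the slowly activating M-type potassium channel, was at 3931, 3148 and 2965 CPM against 805, 895 and 678. Luzp2, whose product has a leucine zipper, was at 1204, 1256 and 1873 CPM against 246, 343 and 284. In each mouse these 4 genes were at least 3.52-fold higher in CA3 nuclei. The other nuclei include the 175 left out only for Calcrl, which also held these genes. There Kcnq5 was at 3621, 1854 and 2529 CPM and Luzp2 at 825, 949 and 1505. In the same nuclei Trps1 was at 519, 478 and 666 CPM and Gm32647 at 348, 1170 and 277. The next genes in the order of their lowest fold were Lats2, a Hippo pathway kinase, Efr3b, Palmd, Itgbl1, Pdlim5, Asph, Cachd1, Hs3st4, Nwd2, Tafa1 and Rnf182, with lowest folds between 2.67 and 3.40.

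**Figure D1:**
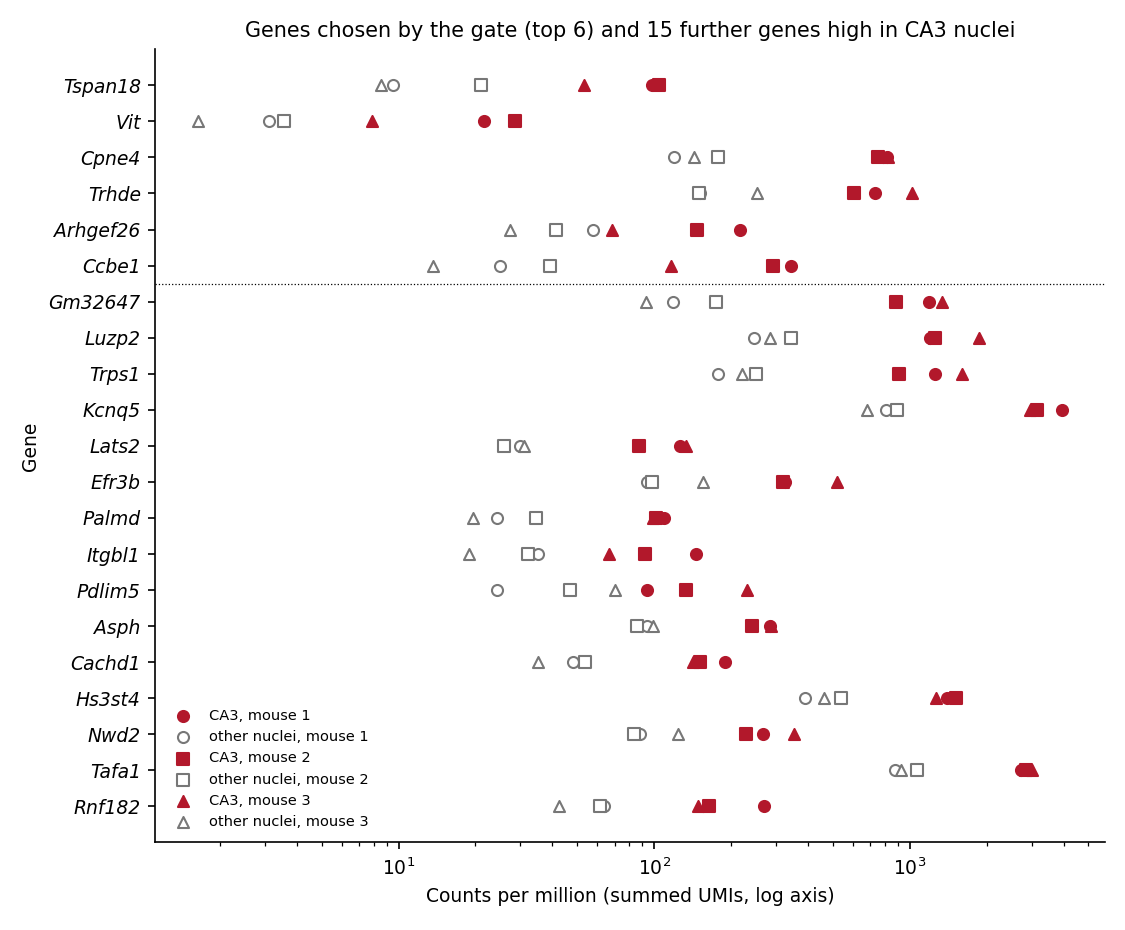
Levels of the 6 gate genes (above the dotted line) and of 15 further genes in CA3 nuclei (filled) and in the other nuclei of the same library (open), in CPM on a log axis, 1 symbol per mouse. For each gene the filled symbols lie to the right of the open symbol of the same mouse, with folds from 2.50 (Arhgef26 in mouse 3) to 14.4 (Gm32647 in mouse 3).

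Of 5749 genes with at least 20 CPM in the higher class of every mouse, 79 (1.37%) were at least 2-fold higher in CA3 nuclei in all 3 mice and 280 (4.87%) at least 2-fold lower. Both counts include genes that the gate used. Tspan18, Cpne4, Trhde, Arhgef26 and Ccbe1 are among the higher genes, and the gate's inhibitory markers are among the lower. The lower genes, of which those named here were chosen after their values were seen, included genes of other cell classes. Reln, the secreted reelin of Cajal-Retzius cells and interneurons, was at 8.96, 15.4 and 8.57 CPM in CA3 nuclei against 124, 102 and 121 in the others. Erbb4, a neuregulin receptor of interneurons, was at 34.5, 167 and 30.0 CPM against 910, 972 and 734. When the other nuclei were restricted to those with Slc17a7, the vesicular glutamate transporter, and without Gad1 or Gad2 above the gate's limit, 73 genes were higher and 154 lower. Of 14 genes listed as further CA3 genes, 10 were abundant enough to compare, and Grik4, Bok, Socs2 and Rnf182 were higher with none lower. Among 26 comparable regional transcription factors, Neurod6 was higher and 10 were lower, among them Prox1 of granule cells and Foxp2 and Cux2 of cortical neurons. None of 17 comparable activity-regulated genes passed 2-fold in either direction in all 3 mice.

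CA3 was next tested against CA1, the pyramidal class to which it projects. CA1 nuclei were gated on CA1 markers that included Fibcd1, Wfs1, Mpped1, Spink8 and Gpr161, with the same limits on genes, detected markers, Gad1 and Gad2. The sum was lowered to 5 per 10000 because the threshold of 10 left 1 nucleus in mouse 3, which gave 474, 113 and 89 nuclei. Unlike the CA3 gate, the CA1 gate had no limit on Calcrl. It also left out nuclei with Tshz2, Foxp2 and Rorb above 1 per 10000 and nuclei that met the CA3, granule or CA2 gate. CA3 nuclei were not cleared in this way. UMIs were summed per mouse and class and fitted with edgeR with the mouse as a block. A call needed an adjusted p under 0.05 (Benjamini-Hochberg over all genes tested) together with a change of 1 or more on the log2 scale, up or down. Of 14045 genes tested, 1180 (8.4%) were called, 738 (5.25%) higher in CA3 and 442 (3.15%) lower. Both classes were chosen by expression, so this total is context and not a finding. The levels of the 3 mice did not overlap between classes for 2117 genes (15.1%). The total fell to 316 without the block and to 314 of 5368 tested genes when each nucleus was thinned to 1000 UMIs.

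The genes that separated CA3 most from CA1 included a growth factor, receptors for guidance cues and adhesion molecules. Hgf, hepatocyte growth factor, was at 28.8, 27.1 and 89.0 CPM in CA3 against 0.819, 0 and 0.31 in CA1. Trps1 was at 80.3, 74.1 and 109 CPM in CA1, far under its CA3 levels given above, with a log2 fold change of 3.85 ± 0.12 (SE). Ephb1, a receptor for ephrin-B ligands, was at 165, 242 and 112 CPM in CA3 and 11.0, 11.5 and 4.02 in CA1, a log2 fold change of 4.22 ± 0.18. These 3 genes did not overlap between the classes in any pair of mice. The other 7 with the largest increases were Ccdc3, 4930467D21Rik, Dpf3, Ttn, Tmem108, Gm34567 and Cdh9. In the opposite direction Gpc5, a glypican that astrocytes also express, was at 216, 201 and 279 CPM in CA3 against 2825, 1879 and 3129 in CA1, a log2 fold change of -3.47 ± 0.12. Ntm, the adhesion protein neurotrimin, was at 122, 245 and 177 CPM against 1727, 1472 and 1728 (-3.23 ± 0.21). Pou3f1, a POU-domain transcription factor, was at 3.60, 5.79 and 2.44 CPM against 30.5, 23.7 and 46.7 (-3.25 ± 0.33). The others of the 10 largest decreases were Gm2164, Ror1, Gm30382, Cdh6, Gm20713, Gm20646 and Ndst3.

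Of the 14 further CA3 genes, all were tested against CA1, 11 were called higher and none lower, with a median log2 fold change of 1.58 against 0.00 over all genes tested. They had been listed with earlier results known, so the count is no independent evidence. It stands beside 5.25% of all tested genes called higher and 3.15% lower. Grik4 (chromosome 9, 42518135 to 42944493, minus strand) was at 965, 963 and 743 CPM in CA3 and 144, 193 and 190 in CA1, a log2 fold change of 2.35 ± 0.15. Bok, a member of the Bcl-2 family, was at 28.9, 33.1 and 26.3 CPM against 3.16, 3.06 and 2.48 (3.29 ± 0.20). Elavl2, a neuronal RNA-binding protein, was at 308, 220 and 276 CPM against 69.4, 55.8 and 73.1 (2.03 ± 0.11). For each of these genes the lowest mouse of CA3 exceeded the highest of CA1. In the nuclei left out only for Calcrl, Grik4 was at 933, 863 and 658 CPM and Elavl2 at 371, 306 and 307. Bok was at 19.4, 15.3 and 7.89 CPM there. Socs2, a suppressor of cytokine signalling, was at 143, 129 and 123 CPM against 32.4, 36.7 and 37.5 (1.92 ± 0.13). Nectin3, an adhesion protein of CA3 neurons, was at 270, 201 and 133 CPM against 31.9, 48.9 and 86.7 (1.92 ± 0.38), with its levels in the classes closest in mouse 3. Without mouse 2 its adjusted p in the edgeR fit was 0.108. The number called was 8 higher and 1 lower of 12 tested without mouse 1, 9 of 14 without mouse 2 and 11 of 14 without mouse 3.

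The mossy fibre synapse list held receptors, auxiliary subunits and adhesion proteins of that contact. Of its 20 genes, 3 were called higher in CA3 than in CA1 and 1 lower, with a median log2 fold change of 0.38, and 2 to 4 were higher and 1 or 2 lower when each mouse was left out. Over all genes tested, 5.25% were called higher and 3.15% lower. Neto1, an auxiliary subunit of kainate receptors, was at 477, 459 and 830 CPM in CA3 and 184, 183 and 250 in CA1, a log2 fold change of 1.49 ± 0.12. Cdh9, a cadherin known from the mossy fibre contact onto CA3, was at 467, 408 and 722 CPM against 49.3, 38.2 and 44.6 (3.57 ± 0.17). The CA3 levels of both lay above all CA1 levels. Lrrtm4, a postsynaptic adhesion protein, was at 1204, 1078 and 926 CPM against 838, 449 and 386 (1.02 ± 0.15), just past the fold minimum. It was not called in 8 of the 11 alternatives, with a log2 fold change of 0.90 without mouse 2, 0.86 without mouse 3, 0.82 without the nuclei that carried Tshz2, Foxp2 or Rorb RNA and 0.77 at a marker sum of 20. Without doublets, without any Calcrl UMI, without the block and after thinning it lay between 0.97 and 0.98. Gpc4, a glypican that in the literature partners presynaptically with the CA3 receptor Gpr158, was lower, at 10.9, 16.5 and 13.2 CPM against 50.1, 74.1 and 73.4 (-2.28 ± 0.13).

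The kainate receptor subunits differed in size of change. Grik2, the principal subunit of the mossy fibre synapse, was at 1579, 1382 and 1147 CPM in CA3 against 836, 674 and 594 in CA1. Its log2 fold change of 0.97 ± 0.09 had an edgeR adjusted p of 0.000158 but lay just under the fold minimum. Grik5, a partner subunit, was at 239, 170 and 115 CPM against 196, 143 and 83.9 (0.34 ± 0.10, edgeR adjusted p 0.0616). The classes did not overlap for Grik2 and overlapped for Grik5. Gpr158, the receptor mentioned above, was at 703, 568 and 906 CPM against 487, 374 and 417 (0.76 ± 0.13), and Adgrb3, a postsynaptic receptor for C1q-like proteins, at 2217, 2196 and 2017 against 3633, 3681 and 3509 (-0.75 ± 0.09). Neither reached the fold minimum. Among the 23 tested glutamate receptor genes, which include Grik4, Grik2 and Grik5, Grik4 alone was called, and the list's median was 0.24. Of all tested genes, 5.25% were called higher and 3.15% lower in the same fit. The glutamate receptor list gave 3 higher without mouse 1, 1 higher and 1 lower without mouse 3, 2 higher at a marker sum of 20, and 3 higher and 1 lower without the filter on low counts.

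**Figure D2:**
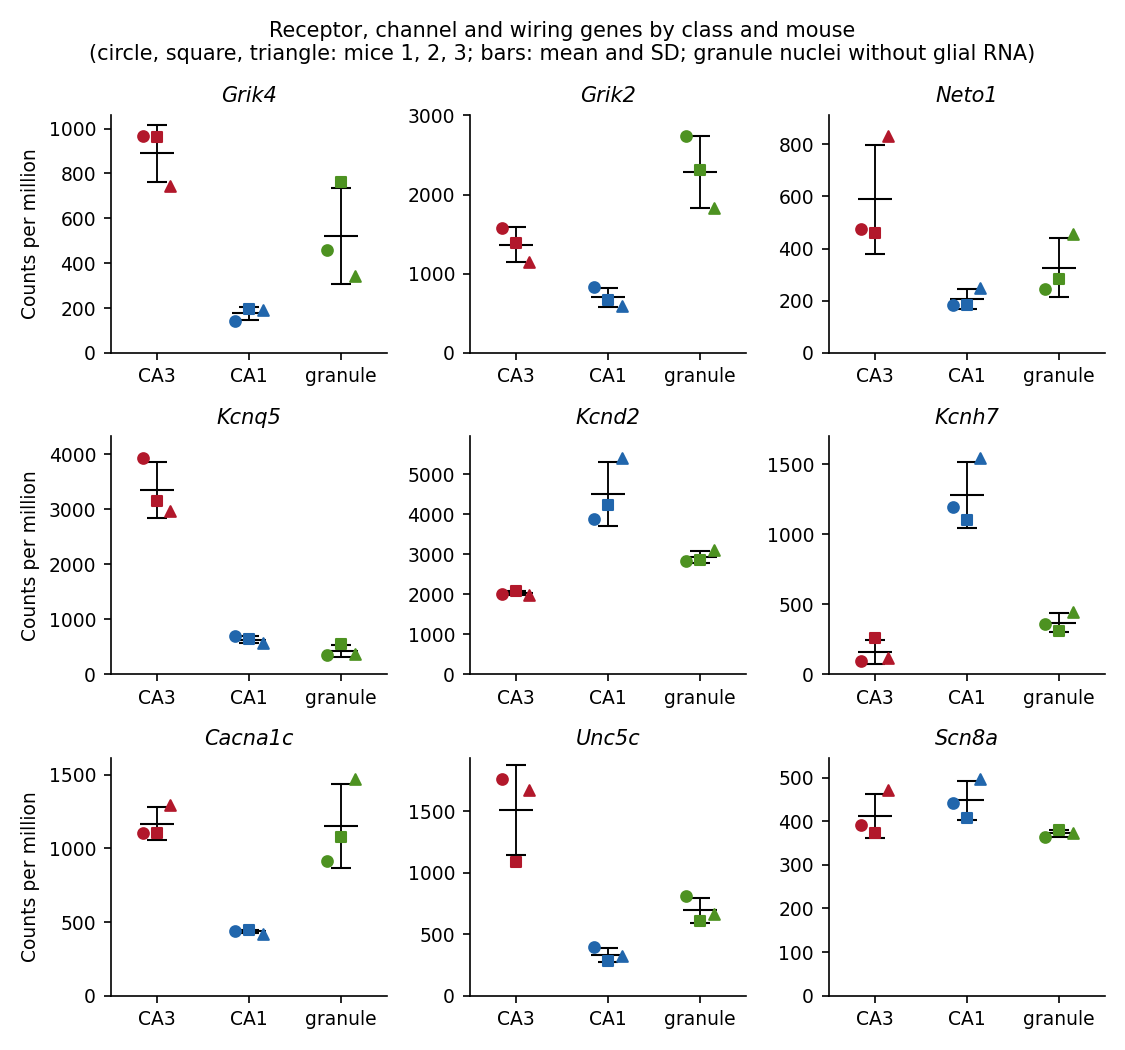
CPM of 9 genes in CA3, CA1 and granule nuclei (granule nuclei without glial RNA), 1 symbol per mouse, with bars for the mean and SD of 3 mice and axes that start at 0. Grik4, Neto1, Kcnq5 and Unc5c are above CA1 in every mouse, Kcnd2 and Kcnh7 are below it, and the Scn8a levels of the classes overlap.

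Channel genes were called in both directions, beside 5.25% of all tested genes called higher and 3.15% lower. Of 45 potassium channel genes tested, 6 were called higher and 6 lower, with a median of 0.06, and of 18 calcium and HCN channel genes, 1 was higher and 2 lower, with a median of -0.08. Kcnq5 (chromosome 1, 21398403 to 21961942, minus strand) was at 687, 641 and 560 CPM in CA1, below its CA3 levels given above, with a log2 fold change of 2.41 ± 0.10. Kcnk10, the leak potassium channel TREK-2, was at 64.7, 51.5 and 268 CPM in CA3 against 22.6, 19.1 and 80.5 in CA1 (1.60 ± 0.12). The classes overlapped for Kcnk10 because mouse 3 was high in both. Kcnh7, an ERG-type channel, was at 96.1, 260 and 120 CPM against 1194, 1102 and 1546 (-3.15 ± 0.29). Kcnd2, the A-type channel Kv4.2 and chosen here after its values were seen, was at 2015, 2086 and 1977 CPM against 3892, 4236 and 5409, a log2 fold change of -1.14 ± 0.12 and of -0.997 without mouse 3, where it fell just short of the minimum. Among 6 tested sodium channel alpha genes, with a median of -0.12, Scn7a was called higher and none lower. Scn8a, the gene altered in these mice, was at 391, 374 and 471 CPM against 442, 408 and 497 (-0.12 ± 0.09, edgeR adjusted p 0.48). None of the 11 sodium channel beta subunit and partner genes was called. Their median was 0.09.

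**Figure D3:**
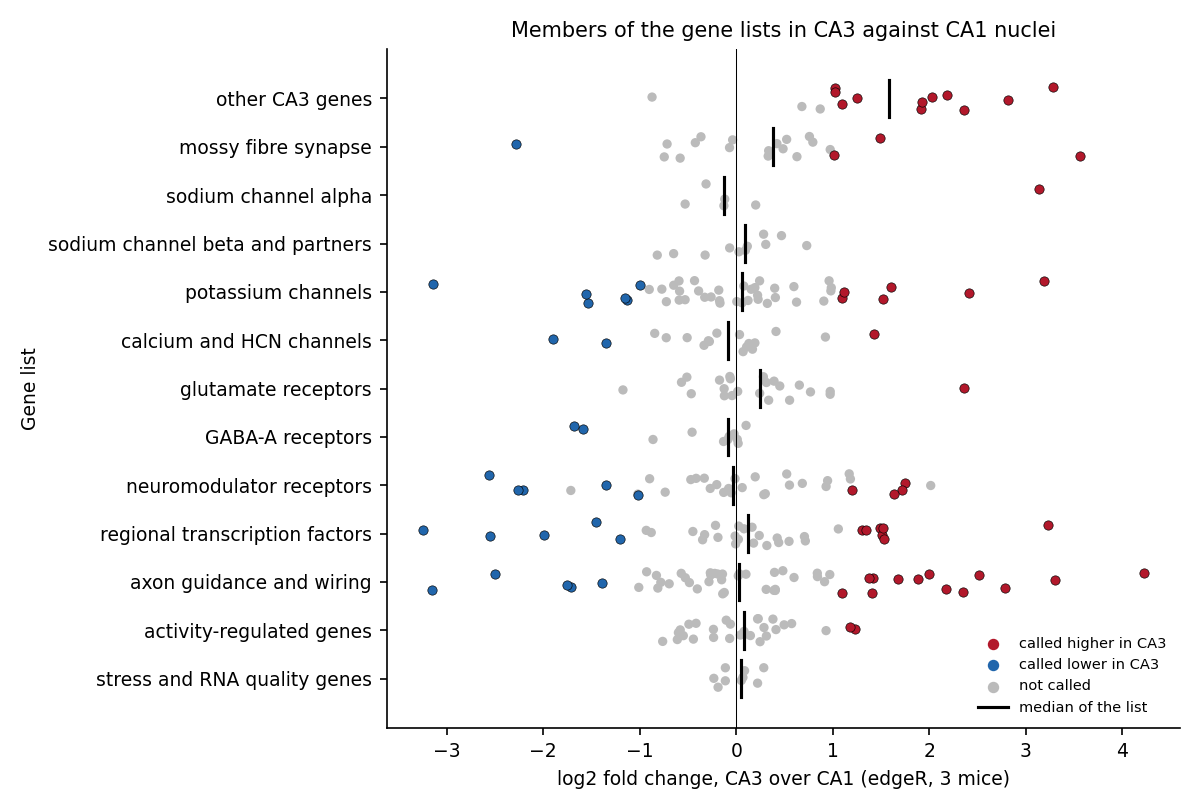
Log2 fold change of CA3 over CA1 for every tested member of the gene lists, 1 point per gene, with the median of each list as a bar and called genes in colour (red higher, blue lower). The further CA3 genes lie mostly to the right with a median of 1.58, while the medians of the other lists lie between -0.12 and 0.38.

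Receptors for inhibitory and modulatory transmitters were called in both directions, beside 5.25% of all tested genes called higher and 3.15% lower. Of 11 GABA-A receptor genes, 2 were lower in CA3 and none higher, with a median of -0.09. Gabrg3, the gamma-3 subunit, was at 190, 277 and 84.4 CPM in CA3 against 534, 480 and 571 in CA1 (-1.68 ± 0.29), and Gabra3 at 11.9, 18.1 and 12.1 against 52.3, 42.0 and 29.7 (-1.59 ± 0.20). Of 34 neuromodulator receptor genes tested, 4 were higher and 5 lower, with a median of -0.03. Htr7, a serotonin receptor, was at 22.8, 24.4 and 64.0 CPM against 2.69, 13.0 and 27.2 (1.75 ± 0.32), with overlap between classes through the high CA1 level of mouse 3. Adra1a, an alpha-1 adrenergic receptor, was at 1.46, 10.9 and 8.64 CPM against 28.4, 34.4 and 39.9 (-2.56 ± 0.36), without overlap. Npy2r, the presynaptic neuropeptide Y receptor and chosen here after its values were seen, was at 19.6, 17.5 and 14.6 CPM against 3.28, 6.11 and 8.36 (1.72 ± 0.32). Without mouse 2 its edgeR adjusted p was 0.0577. Leaving out each mouse in turn gave 2 to 6 higher and 3 to 8 lower in this list. None of the 34 genes was called when the mouse was not a block.

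Regional transcription factors divided 7 higher and 5 lower of 34 tested, with a median of 0.12, beside 5.25% of all tested genes higher and 3.15% lower. Lhx9, a LIM-homeodomain factor, was at 20.4, 12.5 and 10.3 CPM in CA3 against 2.81, 0.764 and 0.31 in CA1 (3.23 ± 0.33). Bcl11b, a zinc-finger factor also called Ctip2, was at 52.2, 89.5 and 38.9 CPM against 289, 218 and 176 (-1.99 ± 0.20). The ranges of the classes did not touch for either gene. Tox3, an HMG-box factor, was at 2.24, 2.35 and 1.04 CPM against 23.5, 3.82 and 4.95 (-2.55 ± 0.43), where mouse 1 alone set the high CA1 level. Without mouse 1 the log2 fold change of Tox3 was -1.62 with an edgeR adjusted p of 0.0553. Zbtb20, at 4024, 3749 and 3018 CPM against 2727, 2935 and 2386, was tested and not called (0.42 ± 0.10).

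Axon guidance and wiring genes gave 13 higher and 5 lower of 51 tested, with a median of 0.03. The shares over all tested genes were 5.25% higher and 3.15% lower. Apart from Ephb1, the largest changes were in semaphorins and a latrophilin. Sema5a was at 89.7, 121 and 69.8 CPM in CA3 against 8.08, 15.3 and 7.12 in CA1 (3.30 ± 0.15), and Sema5b at 7.60, 15.6 and 3.27 against 0.819, 2.29 and 0.929 (2.78 ± 0.38). Adgrl2, or latrophilin-2, a receptor for teneurins, was at 18.2, 25.5 and 13.9 CPM against 179, 110 and 203 (-3.15 ± 0.27). All 3 genes were separated between the classes in every mouse. The following 4 were chosen after their values were seen, as members of known ligand and receptor pairs. Unc5c, a netrin receptor, was at 1760, 1088 and 1675 CPM against 394, 281 and 325 (2.17 ± 0.12), and Nrp2, a receptor for class 3 semaphorins, at 227, 176 and 235 against 43.7, 29.8 and 38.1 (2.52 ± 0.12). Slit2, a secreted ligand of Robo receptors, was at 541, 382 and 881 CPM against 163, 105 and 79.6 (2.35 ± 0.30). Tenm3, a teneurin, the family that binds latrophilins, was at 139, 237 and 258 CPM against 1070, 1070 and 1345 (-2.50 ± 0.15). The whole list had 10 to 13 members higher and 5 or 6 lower when each mouse was left out in turn.

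Without the CA3 nuclei above 1 per 10000 for Tshz2, Foxp2 and Rorb, several of these list counts against CA1 shifted. Over all genes, 682 were then called higher and 461 lower of 13608 tested. Potassium channels then gave 7 higher and 8 lower of 44 tested, and guidance genes 12 higher and 7 lower of 50. Regional transcription factors gave 5 higher and 6 lower of 34, and neuromodulator receptors 3 higher and 6 lower of 32. The mossy fibre synapse list gave 2 higher and 1 lower of 20, and the further CA3 genes 11 higher of 13.

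Granule cells of the dentate gyrus, which send the mossy fibres to CA3, formed the other tested contrast. Their gate on Prox1, Dock10, Glis3, C1ql2, Trpc6 and Rfx3 held 1654, 1726 and 416 nuclei, and these contained glial RNA: Mbp, a myelin gene, was at 434, 354 and 724 CPM against 60.7, 95 and 38.7 in CA3, and Sox10 of the oligodendrocyte lineage at 35.6, 28.7 and 47.6. Of 15357 genes tested, 1658 (10.8%) were called, 736 (4.79%) higher in CA3 and 922 (6.0%) lower. Without mouse 1, 0 genes were called by edgeR although 3307 had an unadjusted p under 0.05, and without mouse 2 the number called was 673. A second granule gate without glial marker RNA and with Slc17a7, added after this was seen, held 431, 197 and 47 nuclei and gave 1497 called of 13568 tested (11.0%), 881 (6.49%) higher and 616 (4.54%) lower. Of the genes called, 857 were shared, which is 51.7% of the first set and 57.2% of the second. With the second gate the number called was 1011, 957 and 1827 without mouse 1, 2 and 3. The 10 largest increases of the first gate were all called again with the second, and of its 10 largest decreases 2 were called lower again and 2 were not tested. Gjc3, a connexin gene of oligodendrocytes, went from a log2 fold change of -3.60 with the first gate to 1.43 (edgeR adjusted p 0.0371) with the second, where it was called higher. Values below are set against the granule nuclei without glial RNA.

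Granule cells form the presynaptic side of the mossy fibre contact. In this contrast 2 of the 20 mossy fibre synapse genes were higher in CA3 (Cdh10 and Flrt2) and 6 lower. Gpc4 was at 93.2, 105 and 180 CPM in granule nuclei against 10.9, 16.5 and 13.2 in CA3 (log2 fold change -3.16 ± 0.20). Lrrtm3 was at 244, 226 and 281 CPM against 48.6, 86.1 and 51.6 (-2.03 ± 0.21), and Kirrel3, an immunoglobulin adhesion protein of mossy fibre synapses, at 996, 523 and 791 against 250, 215 and 215 (-1.69 ± 0.16). Each of these genes was lower in CA3 in all 3 mice and was called when any 1 mouse was left out. Grik4, at 459, 760 and 342 CPM in granule nuclei, was higher in CA3 in each mouse (0.88 ± 0.18) and under the fold minimum. Cdh9 was at 675, 762 and 996 CPM, above its CA3 level in every mouse (-0.59 ± 0.14), although against the first granule gate its log2 fold change was -0.04. Kcnq5 was at 344, 553 and 376 CPM in granule nuclei (3.04 ± 0.21) and was also called without any 1 mouse.

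Of 13 further CA3 genes tested against these granule nuclei, 6 were higher and none lower, with a median of 0.95 beside 0.00 over all genes, of which 6.49% were called higher and 4.54% lower. The counts of the other lists in this contrast stand beside the same shares. Neuromodulator receptors gave 10 higher and 7 lower of 32. Chrm3, the muscarinic M3 receptor, was at 851, 787 and 983 CPM in CA3, 971, 1200 and 1007 in CA1 and 184, 218 and 272 in granule nuclei. Cnr1, the CB1 cannabinoid receptor, was at 121, 121 and 204 CPM in CA3, 159, 147 and 198 in CA1 and 31.1, 36.5 and 42.3 in granule nuclei. For these 2 genes, chosen after their values were seen, CA3 and CA1 overlapped and granule nuclei lay below both. Guidance genes gave 10 higher and 9 lower of 51, and regional transcription factors 5 higher and 9 lower of 34. A gate for CA2 pyramidal nuclei held 4, 8 and 4 nuclei, under the minimum of 20 per mouse, and no test against CA2 was made. Amigo2, a CA2 marker, was at 17.6, 10.1 and 9.82 CPM in CA3 nuclei.

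CA3 nuclei also differed among themselves. They were thinned to 3000 UMIs, which left 437, 464 and 262 nuclei and dropped 1, 186 and 0 shallower ones, and 1582 genes with a mean of at least 0.25 UMI were compared in pairs. Of 1250571 pairs, 14 had a Pearson correlation of at least 0.4 in size and of the same sign in all 3 mice, 7 positive and 7 negative. The points are nuclei that share a library and a fixed depth, so the values describe these libraries and have no p. Kcnq5 and Tafa1, a secreted chemokine-like protein gene, were correlated across nuclei, at 0.70, 0.48 and 0.61 in mice 1, 2 and 3. Gabrg3 went against both, at -0.63, -0.41 and -0.43 with Kcnq5 and -0.66, -0.50 and -0.41 with Tafa1. A second pattern joined Hs6st3, a heparan sulfate sulfotransferase, to Lingo2 (0.63, 0.40 and 0.56) and set it against Dab1, the adaptor of reelin signalling (-0.45, -0.45 and -0.43). Dab1 also went against Trps1, at -0.57, -0.56 and -0.47. Epha5 and Epha6, receptors for ephrin-A ligands, correlated at 0.62, 0.42 and 0.46.

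Gabrg3, Hs6st3 and Tshz2 were chosen after their values were seen, and Tafa1, Dab1 and Zbtb20 are among their strongest negative correlates in these nuclei. The levels by bin below therefore restate those correlations. In nuclei with no Gabrg3 UMI, which were 339, 253 and 225 of the thinned nuclei, Tafa1 had a mean of 9.09, 8.73 and 9.38 UMIs. In the 20, 17 and 6 nuclei with at least 5 Gabrg3 UMIs its mean was 0.10, 1.88 and 0.50. The nuclei that the gate dropped for Calcrl had Gabrg3 at 614, 1068 and 645 CPM, above the 190, 277 and 84.4 of CA3, and their Tafa1 level, 2519, 1615 and 2214 CPM, lay below the 2722, 2864 and 3011 of CA3. Dab1 had a mean of 6.78, 7.28 and 8.10 UMIs in the 147, 99 and 73 nuclei without Hs6st3 and of 3.20, 3.23 and 3.61 in the 120, 132 and 96 with at least 5 UMIs of it. Both groups are well filled in every mouse, and the Dab1 level fell through the intermediate bins. The nuclei dropped for Calcrl had Hs6st3 at 549, 1044 and 423 CPM, below the 1296, 1306 and 1570 of CA3. Their Dab1 level, 2723, 2697 and 3182 CPM, lay above the 1759, 1720 and 1858 of CA3. Of the gated CA3 nuclei, 75, 58 and 39 held 1 Calcrl UMI, and the correlations without them were not tested. Zbtb20 was at 12.3, 11.1 and 9.62 UMIs where Tshz2 was absent and at 0.571, 3.80 and 0.40 in the 7, 5 and 20 nuclei with at least 5 Tshz2 UMIs after thinning. After Malat1, the genes with the highest lowest-of-3 ratio of variance to mean among these nuclei were Gm32647, Dpp10, Epha6, Sgcd and Hs6st3.

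**Figure D4:**
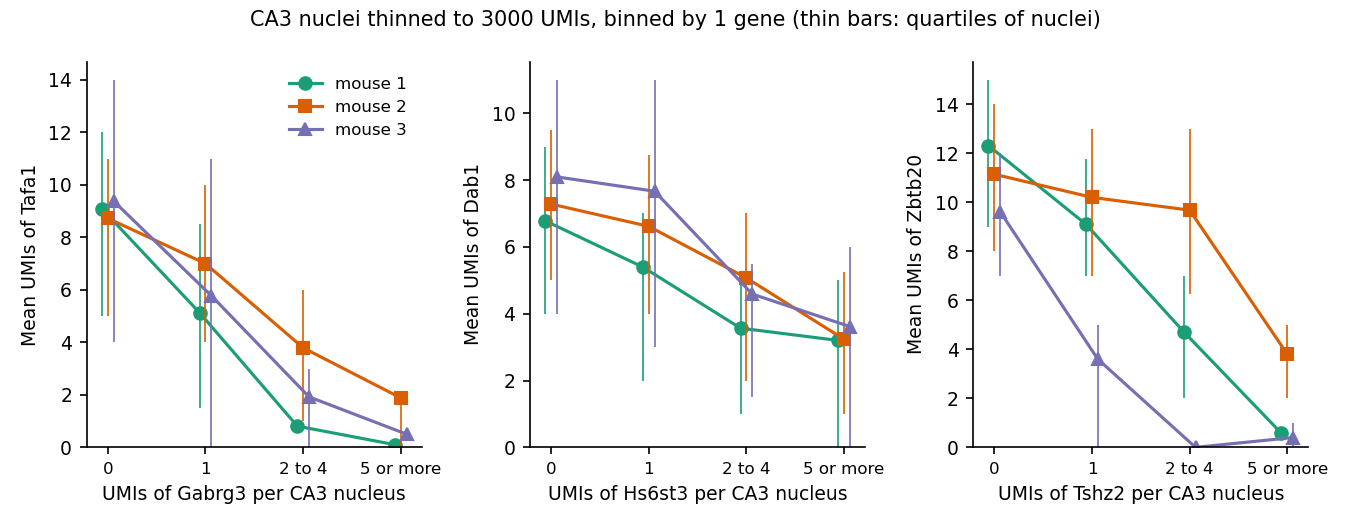
Mean UMIs of Tafa1, Dab1 and Zbtb20 per CA3 nucleus thinned to 3000 UMIs, in bins of nuclei by the UMIs of Gabrg3, Hs6st3 and Tshz2, with thin bars for the quartiles of nuclei and 1 line per mouse. In each mouse the mean of the second gene is lower in the highest bin than in the nuclei without the first, for example 9.09 against 0.10 for Tafa1 in mouse 1. The pairs were picked from negative correlations in these same nuclei, so the drop restates them.

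Activity-regulated genes, which neurons transcribe after strong firing, were read in CA3 nuclei mouse by mouse and without a test, since each mouse is its own batch. Several rapid transcription factor genes were lowest in mouse 2. Nr4a3, an orphan nuclear receptor, was at 261, 53.0 and 214 CPM in mice 1, 2 and 3, with exact 95% Poisson intervals of 251 to 271, 47.1 to 59.4 and 206 to 222 that cover counting error only. Its relative Nr4a1 was at 179, 45.9 and 153 CPM, and Npas4, a neuronal activity-dependent factor chosen here after its values were seen, at 162, 9.59 and 97.6. Several genes for synaptic, secreted and signalling products were highest in mouse 3, whether or not mouse 2 was their lowest. Bdnf, the neurotrophin, was at 152, 167 and 716 CPM, Inhba, the activin A subunit, at 15.8, 41.8 and 271, and Nptx2, a secreted pentraxin, at 55.8, 51.9 and 278. Homer1, a postsynaptic scaffold, was at 564, 737 and 1195 CPM, Pcsk1, a prohormone convertase, at 54.9, 47.4 and 180, and Rheb, a GTPase, at 111, 97.7 and 191. Arc, a synaptic capsid-like protein gene, was lowest in mouse 2 like the rapid genes, at 101, 25.0 and 29.5 CPM, and the transcription factor gene Egr3 was lowest in mouse 3, at 66.9, 26.9 and 21.7. Both were chosen here after their values were seen.

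Over the 30 listed genes the median log2 ratio (with 1 CPM added) was 1.03 for mouse 1 over mouse 2, with 26 genes higher, 1.14 for mouse 3 over mouse 2, with 28 higher, and -0.22 for mouse 3 over mouse 1, with 11 higher. The same medians over 9386 genes with at least 5 CPM were 0.08, -0.32 and -0.41. In the other nuclei of the same mice the 3 medians of the list were 1.16, 1.03 and -0.19. Stress and RNA quality genes had medians of 0.26, -0.06 and -0.34 over 14 genes. Mouse 2 had the shallowest CA3 nuclei. With each nucleus thinned to 1000 UMIs the 3 medians of the activity list were 0.95, 0.98 and -0.37, with 21, 24 and 12 genes higher. Against CA1 of the same mice, 2 of 29 activity-regulated genes were called higher in CA3 and none lower, at a median of 0.08, which is near the 5.25% of all genes called higher. Without the nuclei carrying Tshz2, Foxp2 or Rorb RNA 3 of 28 were called higher, and after thinning to 1000 UMIs, or without the mouse as a block, 0 were. None of 9 stress genes was called, at a median of 0.05. Pcsk1 was at 28.2, 17.6 and 75.2 CPM in CA1 (log2 fold change 1.18 ± 0.13), and its edgeR adjusted p was 0.0565 after thinning and 0.719 without the block. Dusp1, a phosphatase of MAP kinases, was at 12.5, 2.71 and 9.06 CPM in CA3 against 5.03, 0 and 4.95 (1.23 ± 0.31), and its edgeR adjusted p was 0.161 without mouse 1, 0.0532 without mouse 2, 0.154 at a marker sum of 20 and 0.775 without the block, and by DESeq2 it was 0.0942. Against granule nuclei without glial RNA, Egr2, Egr3, Bdnf, Inhba and Scg2 were lower in CA3 and none was higher of 28 tested, where 4.54% of all genes were called lower. With the first granule gate, 0 of 30 tested activity-regulated genes were called in either direction.

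**Figure D5:**
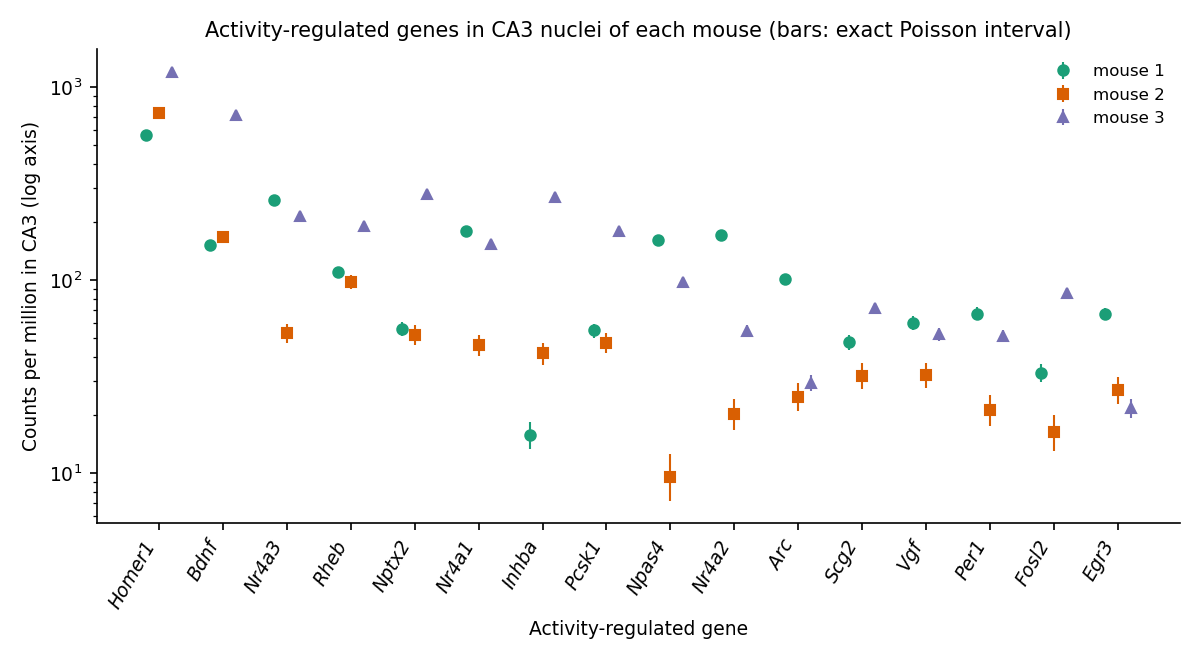
CPM of activity-regulated genes in the CA3 nuclei of each mouse on a log axis, with exact 95% Poisson intervals, which cover counting error only. Nr4a1, Nr4a3 and Npas4 are lowest in mouse 2, and Bdnf, Inhba and Nptx2 are highest in mouse 3.

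The promoters of the activity-regulated genes were searched for the full cyclic AMP response element, TGACGTCA, which reads the same on both strands and is the textbook binding sequence of CREB. In RefSeq windows of 250 bases before to 50 after each gene's start (GRCm38.p6), 23 of the 30 genes had a promoter and 3 of these (13.04%) held the motif, as did 549 of 27025 genes of the whole table (2.03%). The 3 are printed because they include Dusp1 and Pcsk1, the activity-regulated genes called higher in CA3 than in CA1, with the motif in capitals. Its first base lay 143 bases before the start in Dusp1 (chr17:26508423-26508722, minus strand), 78 in Pcsk1 (chr13:75089607-75089906, plus strand) and 68 in Scg2 (chr1:79439977-79440276, minus strand).
Dusp1: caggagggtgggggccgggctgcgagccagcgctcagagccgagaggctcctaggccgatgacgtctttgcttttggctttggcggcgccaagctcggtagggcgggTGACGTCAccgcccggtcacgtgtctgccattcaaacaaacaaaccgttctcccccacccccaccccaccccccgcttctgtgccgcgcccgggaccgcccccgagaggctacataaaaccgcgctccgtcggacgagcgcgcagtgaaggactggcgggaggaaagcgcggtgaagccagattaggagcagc
Pcsk1: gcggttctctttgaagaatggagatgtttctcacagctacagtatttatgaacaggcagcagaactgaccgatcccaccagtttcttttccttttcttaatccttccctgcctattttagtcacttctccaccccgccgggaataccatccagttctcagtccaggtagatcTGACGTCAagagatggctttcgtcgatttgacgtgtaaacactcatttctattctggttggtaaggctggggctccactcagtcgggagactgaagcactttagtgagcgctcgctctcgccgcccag
Scg2: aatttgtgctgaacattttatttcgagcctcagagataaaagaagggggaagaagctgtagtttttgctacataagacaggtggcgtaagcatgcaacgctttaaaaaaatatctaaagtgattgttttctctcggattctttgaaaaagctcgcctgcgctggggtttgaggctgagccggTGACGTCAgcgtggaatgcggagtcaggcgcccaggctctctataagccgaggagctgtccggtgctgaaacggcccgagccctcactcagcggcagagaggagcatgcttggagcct
Scg2, secretogranin II, was at 47.6, 32.0 and 71.8 CPM in CA3 nuclei, so that all 3 genes were lowest in mouse 2. So were most of the 30 listed activity-regulated genes. Of all 30, 26 were higher in mouse 1 than in mouse 2, and 28 were higher in mouse 3 than in mouse 2. A match describes these letters in this window and shows neither a binding site nor a cause of the levels.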

How the data were processed

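Nuclei of 3 mice, which the labels give as replicates 1 to 3, were measured as 3 libraries. The authors deposited raw UMI counts per gene and barcode, from Cell Ranger 7.0.0 (mice 1 and 2) and 7.1.0 (mouse 3) per the file headers, and the genome build was mm10 per the submitters' processing notes. The treatment of introns was not given in the sources used here. The nuclei, gates and gene lists were chosen with earlier results of these data known.

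Counts were summed per mouse and class with Python 3.11.15 (numpy 2.4.6, scipy 1.17.1, pandas 2.3.3). Sums of CA3 and of CA1 or granule nuclei were compared by edgeR 4.0.16 under R 4.3.3 (TMM, filterByExpr, quasi-likelihood test), which was tested on simulated data. The mouse was a block because both sums come from the same animal. Deviations from the class means correlated at 0.634, 0.418 and 0.677 for the pairs with CA1 and at 0.485, 0.303 and 0.361 for those with granule nuclei. In the fits with the block, p-values rest on how far the difference between classes varied over these 3 mice, with variance estimates shared across genes.

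Named genes were the 10 largest calls in each direction with at least 20 CPM in the higher class in every mouse, up to 4 called members of each list, tested members of the lists closest to CA3, and, between mice, the 8 most abundant activity-regulated genes. Others are marked as chosen after their values were seen. One gene of the lists is not reported here. Scrublet (scanpy 1.11.5) called 755, 1394 and 274 nuclei doublets, of which 60, 67 and 11 were CA3 nuclei. Its automatic threshold called 0 in mouse 2, so the threshold there was set by an expected rate of 0.8% per 1000 nuclei. Called nuclei were kept and left out in an alternative.

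Alternatives were DESeq2 1.42.0, no filter, no block, each mouse left out, no doublets, a marker sum of 20, nuclei thinned to 1000 UMIs, other numbers of detected markers and, added later, gates without cortical, Calcrl or glial RNA. Gene positions were from GENCODE vM21 (GRCm38), in which 118 of 118 genes looked up matched. Promoters were from RefSeq (GRCm38.p6). Figures were drawn with matplotlib 3.10.9.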

Additional observations from a re-analysis of the deposited data

How the results depend on the processing

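Against CA1, the number of genes called was 316 without the replicate block and 314 when nuclei were thinned to 1000 UMIs, which left 5368 of 14045 genes to test. It was 880 to 1262 when each mouse was left out and 965 to 1550 with DESeq2, without the filter, or with the other gates. Of 50 named genes called against CA1, 36 kept the call without the block, 49 with DESeq2, 46 to 48 without 1 mouse, and 33 of the 36 still tested after thinning, all in the same direction. Against granule nuclei the number called was 451 after thinning and 0 to 2022 when each mouse was left out. With the granule gate without glial RNA, chosen after seeing the data, it was 1011, 957 and 1827 without mouse 1, 2 and 3. Without the replicate block it was 1259. Cdh9 against the first granule gate was -0.04 and changed sign under 7 alternatives, none of which called it: 0.0818 without the replicate block, 0.14 and 0.16 without mouse 1 and mouse 2 (-0.38 without mouse 3), 0.19 at a marker sum of 20, 0.12 thinned, and, in gates chosen after seeing the data, 0.10 without Tshz2, Foxp2 or Rorb RNA and 0.038 without Calcrl. The cause was not tested. Genes lower than in the other nuclei numbered 154 when these were only glutamatergic. The mean share of CA3 nuclei over the 3 mice was 7.44% with 2 or more markers, 3.75% with 4 or more, 2.27% at a marker sum of 20 and 7.34% at a sum of 5. Over 62 named genes, 640 of 692 alternative values kept direction and call, 43 lost the call, 2 gained it and 7 changed sign. No alternative against CA2 was run, since that gate held 4 to 8 nuclei per mouse. CA1 had 89 nuclei in mouse 3, and low genes there rest on few UMIs.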
